A study of Homo sapiens with 8 samples.

Results

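The genes described here make cholesterol, answer to the sterol-regulated transcription factors SREBP, or answer to the oxysterol receptor LXR. They were named by symbol, as 33 genes: the enzymes from acetyl-CoA to cholesterol, the SREBP system itself, a sterol carrier, fatty acid enzymes driven by SREBP, and the LXR gene NR1H3 with 3 targets. Of these, 32 were among the 26830 gene symbols of the deposited table, and ACACA was not analysed here. A filter of at least 1 TPM in at least 2 libraries kept 14302 genes and 31 of the 32, since ABCG1, a sterol export pump, stood at 0.25 TPM or less in all 8 libraries. TPM is a length-scaled share of all transcripts in a library.

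Cells make cholesterol from acetyl-CoA through mevalonate, isoprenoids, squalene and lanosterol. When membranes hold little sterol, SCAP carries the SREBP precursors, the products of SREBF1 and SREBF2, out of the endoplasmic reticulum, proteases free their active part, and the genes of the pathway are transcribed. When sterol is plentiful, INSIG proteins hold SCAP back, and oxysterols switch on LXR, which raises the export pumps ABCA1 and ABCG1 and MYLIP, a ubiquitin ligase that removes lipoprotein receptors. Dividing cells need this supply for new membranes and for the lipid tails of signalling proteins.

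Polyadenylated RNA was sequenced from NOMO-1 and MOLM-13, human acute myeloid leukaemia lines that each carry a fusion of the MLL gene. ALKBH5 is an enzyme that removes the m6A methyl mark from RNA, and the comparison asked what its loss did to the transcriptome. The 4 groups, of 2 libraries each, were NOMO-1 with a lentiviral short hairpin RNA against ALKBH5 (shALKBH5), NOMO-1 with a non-targeting hairpin (shNS), MOLM-13 shALKBH5 and MOLM-13 shNS. All 4 groups had been transduced and selected with puromycin; the submitters' texts differ on how long, and also mention a virus against FTO and drug treatments that no sample label lists. The knockdown rests on 1 hairpin, so an effect of that hairpin on other RNAs cannot be told apart from the loss of ALKBH5. The labels do not say whether the 2 libraries of a group are separate cultures. If they are not, the p-values describe technical spread alone. The depth of the libraries is unknown because TPM keeps none.

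ALKBH5 stood at 15.1 and 14.2 TPM in NOMO-1 shALKBH5, against 70.4 and 71.8 TPM in NOMO-1 shNS, and at 9.45 and 7.35 TPM in MOLM-13 shALKBH5, against 45.7 and 45.8 TPM in MOLM-13 shNS. MOLM-13 shALKBH5 was the group whose libraries differed most: across the 8804 genes that averaged 10 TPM or more, the log2 difference between its replicates had an SD of 0.53, against 0.133 to 0.184 in the others. All 12 myeloid marker genes reached 1 TPM in some library and 10 did so in all, with CD14 and MPO under 1 TPM in NOMO-1. Their summed level was higher after knockdown, at 3384 to 3422 TPM in NOMO-1 shALKBH5 against 1505 to 1536 TPM in NOMO-1 shNS, and 13678 to 21332 TPM in MOLM-13 shALKBH5 against 10204 to 10754 TPM in MOLM-13 shNS. LYZ made up most of the sum in MOLM-13, and single markers went both ways. Markers are counted here where groups did not overlap, as in 82.6% of all genes tested in NOMO-1 and 67.5% in MOLM-13. In NOMO-1, 6 of the 10 that reached 1 TPM there lay above their controls, LYZ and CD68 among them, and SPI1, CEBPA and CD33 lay below. In MOLM-13, 8 of 12 lay above and MPO, ITGAM and PTPRC below, with MPO at 19.3 and 16.4 TPM in shALKBH5 against 384 and 457 TPM in shNS. Whether these shifts had a part in the results on sterol genes was not tested. In a bulk library, fewer cells of a type and less RNA per cell cannot be told apart. Defining markers of hepatocytes (TTR), adipocytes (PLIN1), epithelium (EPCAM), B cells (MS4A1) and erythroid cells (HBA1) were listed at 0 in all 8 libraries, although HBB stood at 14.03 TPM in MOLM-13 shALKBH5 replicate 3 alone and SERPINA1 at 27.6 to 32.3 TPM in NOMO-1.

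The sequences just upstream of 5 genes are shown because these genes carry the findings below: MVD and MSMO1 rose and EBP and SCD fell after knockdown in both lines, and SREBF2 moved in opposite directions. Each is the 200 bases before the RefSeq start of the gene (GRCh38.p14), 5′ to 3′ on the gene's strand, with matches to CCAAT or TCACNCCAC on either strand in capitals.
MVD, chr16:88663092-88663291, minus strand: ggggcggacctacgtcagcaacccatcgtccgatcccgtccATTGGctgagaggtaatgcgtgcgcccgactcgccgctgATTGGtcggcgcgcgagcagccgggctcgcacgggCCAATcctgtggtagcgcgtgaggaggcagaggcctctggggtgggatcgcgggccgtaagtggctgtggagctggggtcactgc
MSMO1, chr4:165327469-165327668, plus strand: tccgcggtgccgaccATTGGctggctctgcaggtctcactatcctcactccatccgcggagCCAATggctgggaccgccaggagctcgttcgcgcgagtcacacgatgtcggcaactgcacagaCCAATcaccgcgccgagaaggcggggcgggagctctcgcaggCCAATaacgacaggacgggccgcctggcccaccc
EBP, chrX:48521608-48521807, plus strand: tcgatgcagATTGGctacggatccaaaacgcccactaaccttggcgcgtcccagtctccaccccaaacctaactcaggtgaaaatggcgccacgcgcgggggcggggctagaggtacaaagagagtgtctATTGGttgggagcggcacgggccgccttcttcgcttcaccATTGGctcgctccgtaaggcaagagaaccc
SCD, chr10:100347033-100347232, plus strand: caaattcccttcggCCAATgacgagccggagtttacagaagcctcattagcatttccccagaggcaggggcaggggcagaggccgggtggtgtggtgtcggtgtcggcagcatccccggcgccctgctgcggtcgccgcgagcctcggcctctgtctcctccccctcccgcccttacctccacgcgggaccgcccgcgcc
SREBF2, chr22:41832905-41833104, plus strand: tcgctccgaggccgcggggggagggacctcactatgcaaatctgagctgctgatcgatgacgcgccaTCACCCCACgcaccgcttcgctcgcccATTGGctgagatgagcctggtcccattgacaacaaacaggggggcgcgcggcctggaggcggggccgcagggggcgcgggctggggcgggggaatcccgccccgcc
CCAAT is the letters of the box bound by NF-Y, a partner of SREBP, and TCACNCCAC resembles the sterol response element of well-studied SREBP targets. Within 250 bases upstream, CCAAT on either strand was in 21 of 37 windows of 27 of the genes (56.8%), against 32.0% of all 35116 RefSeq windows of that length. TCACNCCAC was in 1 of the 37 windows, that of SREBF2, at 133 bases from the start (2.7%, against 0.883% of all windows), and no match of it was found in the windows of MVD, MSMO1, EBP or SCD. With 1 base fewer, TCACNCCA, there were matches for SREBF2, MSMO1 and MVK (8.11% of windows, against 3.2%). CACGTG, the E-box letters, was in 5 of the 37 windows, of ABCA1, INSIG1, SC5D and SCAP (13.5%, against 6.34%). Among the sequences shown, MVD and EBP each held 3 CCAAT matches and MSMO1 held 4, so genes that rose and a gene that fell shared these letters. A match is a description of the letters and says nothing of binding in these cells.

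**Figure D1:**
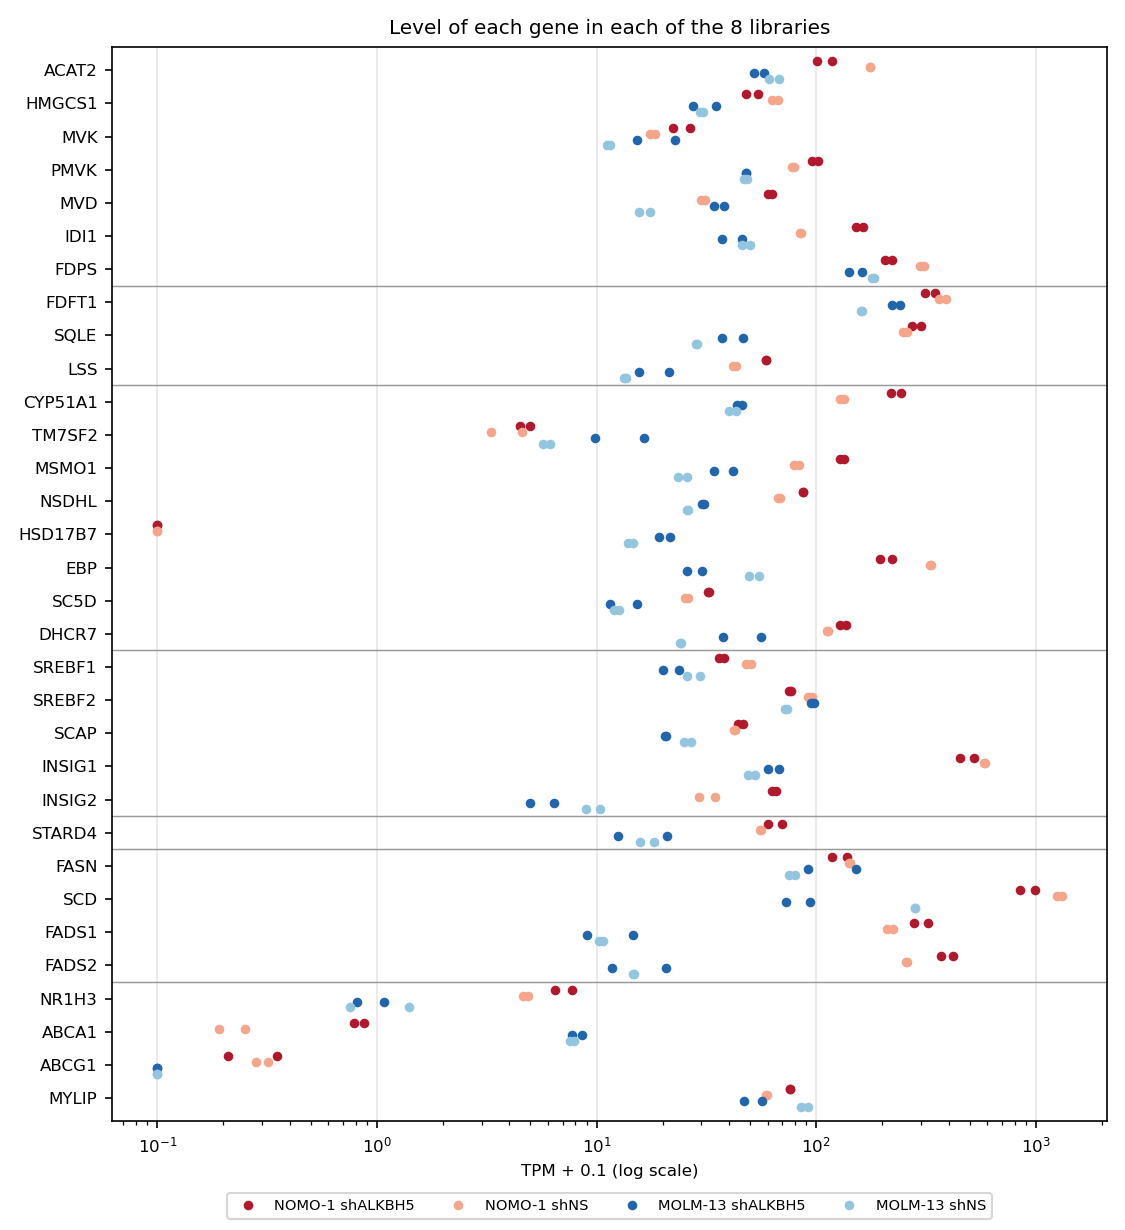
Level of each of the 32 genes in each of the 8 libraries, as TPM + 0.1 on a log scale, with 1 point per library and horizontal lines between groups of genes by role. NOMO-1 libraries lie to the right of MOLM-13 libraries for most genes, with FADS1, FADS2, INSIG1 and SQLE furthest apart among those higher in NOMO-1. ABCA1 and TM7SF2 in NOMO-1 lie to the left, and HSD17B7 was listed at 0 in all NOMO-1 libraries. MYLIP in NOMO-1 lies to the left of MOLM-13 shNS and to the right of MOLM-13 shALKBH5.

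The lines differed in these genes before any knockdown. Between the control libraries, 27 of the 31 genes were higher in NOMO-1 and 3 were lower (limma, adjusted p under 0.05 over all genes), where 59.8% of all genes tested were called, 40.6% as higher and 19.2% as lower. HSD17B7, ABCA1 and NR1H3 entered the test through the line where they are high, so their differences are given as a description. Of the other 28 genes, 26 were higher and 1 was lower, where 40.0% and 17.2% of the 11612 genes that passed the filter within each line were called. The median log2 difference of TPM + 1 (NOMO-1 minus MOLM-13) was 1.22 over the 31 genes and 0.29 over all genes tested. With median-of-ratios scaling, which sets the libraries level on their typical gene instead of their total, 23 were higher and 3 lower (34.4% and 31.5% of all genes tested); MVK, SREBF1, SREBF2 and FASN were no longer called. That scaling moved the median of all genes by -0.16 for the knockdown in NOMO-1, 0.21 for the knockdown in MOLM-13 and -0.26 for the controls on the log2 scale. No gene's groups overlapped between the controls, which was also true of 89.5% of all genes tested.

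Among the genes higher in NOMO-1, the widest gaps by ratio of means were in the desaturases FADS1 and FADS2, which build polyunsaturated fatty acids. FADS1 had 211 and 225 TPM in NOMO-1 shNS, against 10.6 and 10.1 TPM in MOLM-13 shNS, a 21.0-fold ratio of means (log2 difference 4.26, SE 0.21, adjusted p = 1.24e-05). FADS2 had 257 and 259 TPM in NOMO-1 shNS, against 14.5 and 14.8 TPM in MOLM-13 shNS, a 17.7-fold ratio (4.05, SE 0.24, adjusted p = 2.56e-05). The genes lie beside each other on chromosome 11 (FADS1 at chr11:61799627-61817003, FADS2 at chr11:61816203-61867354, GRCh38.p14), with annotated transcripts on opposite strands that overlap, and FEN1 lies inside FADS2. The strand setting of the counting is not given in the sources used here, so reads in the overlaps cannot be assigned with certainty.

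INSIG1, an SCAP anchor that is itself an SREBP target, had 582 and 587 TPM in NOMO-1 shNS, against 52.4 and 49.0 TPM in MOLM-13 shNS, 11.5-fold by means. In NOMO-1 shNS it ranked 201st of the whole table by mean TPM, and in MOLM-13 shNS 2713th. SQLE, the epoxidase that commits squalene to sterols, had 247 and 259.83 TPM in NOMO-1 shNS, against 28.3 and 28.5 TPM in MOLM-13 shNS, 8.93-fold. EBP, DHCR7, SCD and NR1H3 were 4.55-fold to 6.35-fold higher in NOMO-1, and MSMO1, STARD4, CYP51A1, LSS and INSIG2 3.17-fold to 3.33-fold. The smaller ratios included 1.29-fold for SREBF2, 1.64-fold for SCAP and 1.77-fold for SREBF1, and likewise 1.59-fold for MVK and 1.64-fold for PMVK. The SREBF2 call was lost under median-of-ratios scaling (adjusted p = 0.715) and without any 1 of the 4 control libraries (adjusted p = 0.0525 to 0.0806), and the MVK and FASN calls were lost in the same 5 fits (adjusted p up to 0.332 and 0.177).

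Only 3 of the 31 genes were lower in NOMO-1. ABCA1, the LXR target that exports cholesterol to apolipoproteins, had 0.15 and 0.09 TPM in NOMO-1 shNS, against 7.82 and 7.46 TPM in MOLM-13 shNS. MYLIP had 58.7 and 59.3 TPM in NOMO-1 shNS, against 91.2 and 84.8 TPM in MOLM-13 shNS (-0.57, SE 0.11, adjusted p = 0.00506). The receptor gene NR1H3 was among the genes higher in NOMO-1, at 4.54 and 4.79 TPM in NOMO-1 shNS, against 1.30 and 0.65 TPM in MOLM-13 shNS. HSD17B7, a ketone reductase of the pathway, was listed at 0 in all 4 NOMO-1 libraries and stood at 13.84 and 14.58 TPM in MOLM-13 shNS. A value of 0 in estimated abundances may be a failed estimate, and HSD17B7 has a near-identical pseudogene, HSD17B7P2, which was at 0.08 TPM or less in NOMO-1 and between 1.85 and 3.98 TPM in MOLM-13. TM7SF2, a sterol reductase, was not called, with 4.49 and 3.20 TPM in NOMO-1 shNS against 5.62 and 6.01 TPM in MOLM-13 shNS.

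**Figure D2:**
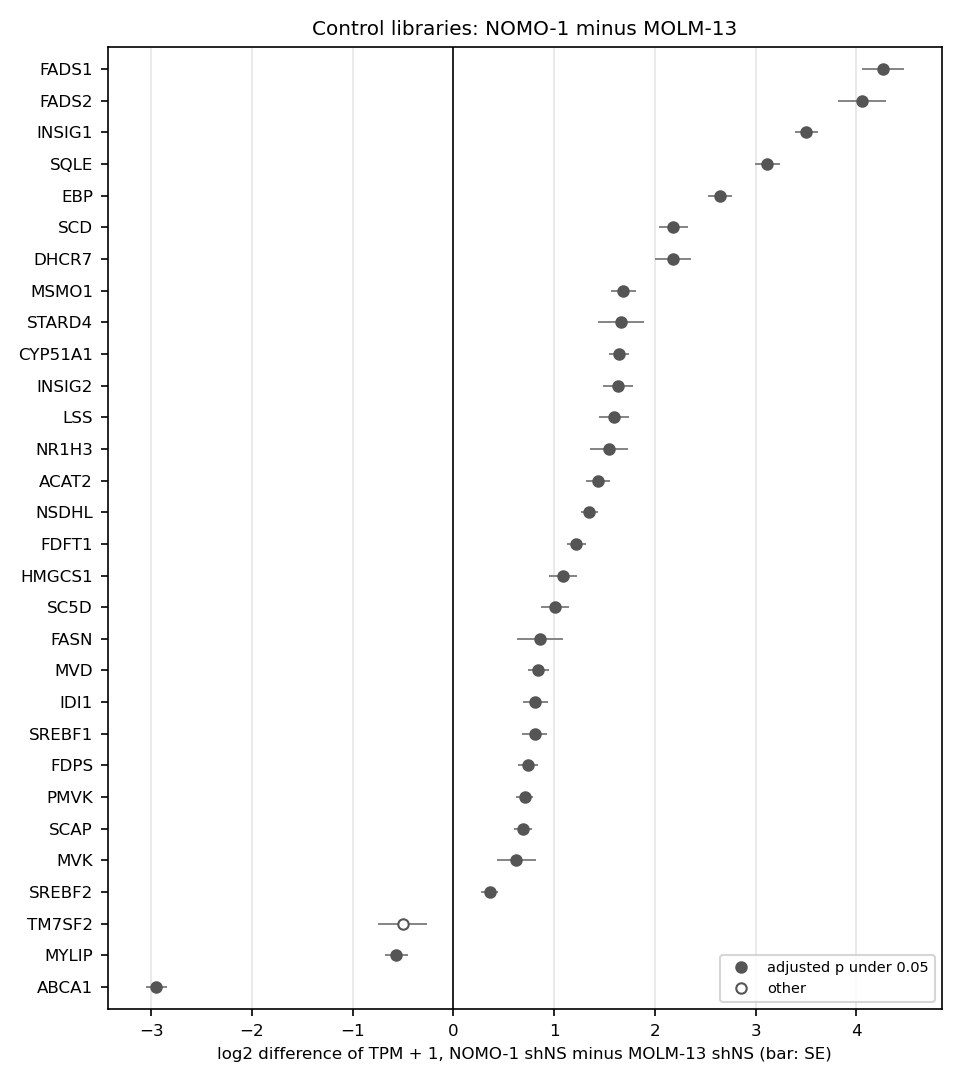
Log2 difference of TPM + 1 between the control libraries, NOMO-1 shNS minus MOLM-13 shNS, for 30 genes ordered by size, with SE as bars and filled points where the adjusted p was under 0.05. HSD17B7 is left out because NOMO-1 was listed at 0. FADS1 and FADS2 are at the top above 4, and ABCA1, at -2.95, is at the bottom. ABCA1 and NR1H3 entered the test through 1 line alone.

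After ALKBH5 knockdown the genes moved in both directions in each line. In NOMO-1, 10 of the 31 genes rose and 6 fell, where 43.6% of all genes tested were called (28.6% higher, 15.0% lower). In MOLM-13, 9 rose and 5 fell, where 41.8% of all genes tested were called (10.6% higher, 31.2% lower). The median log2 fold change was 0.23 over the 31 genes and 0.16 over all genes tested in NOMO-1, and 0.09 against -0.18 in MOLM-13. Relative to the typical gene, with median-of-ratios scaling, 6 rose and 7 fell in NOMO-1, where 23.7% of all genes tested were called higher and 26.0% lower. In MOLM-13, 13 rose and 3 fell with that scaling, where 24.1% were called higher and 26.4% lower. HMGCS1, NSDHL, SC5D and INSIG1 were among these 13 and not among the 9. The groups did not overlap for 29 of the 31 genes in NOMO-1 and for 22 in MOLM-13, where 82.6% and 67.5% of all genes tested did not overlap. HSD17B7 counts among the 31, although it was listed at 0 in all NOMO-1 libraries. ABCA1 counts among the genes that rose in NOMO-1, although it lay under 1 TPM there.

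The 18 enzymes from ACAT2 to DHCR7 summed to 2136 and 2298 TPM in NOMO-1 shALKBH5, against 2144 and 2209 TPM in NOMO-1 shNS, and these ranges overlap. In MOLM-13 they summed to 891 and 921 TPM after knockdown, against 807 and 793 TPM in the controls, and do not overlap. The MOLM-13 sums differed by step: the mevalonate and isoprenoid steps had 391 and 372 TPM after knockdown, against 399.6 and 396 TPM in the controls, and the steps from squalene to lanosterol 274 and 308 TPM, against 202 and 202 TPM. FDFT1 made up most of this last difference. Among these 18 enzymes, 7 rose and 3 fell in NOMO-1 (4 and 4 with median-of-ratios scaling), beside 28.6% and 15.0% of all genes tested (23.7% and 26.0%). In MOLM-13, 8 rose and 1 fell (11 and 1), beside 10.6% and 31.2% (24.1% and 26.4%).

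**Figure D3:**
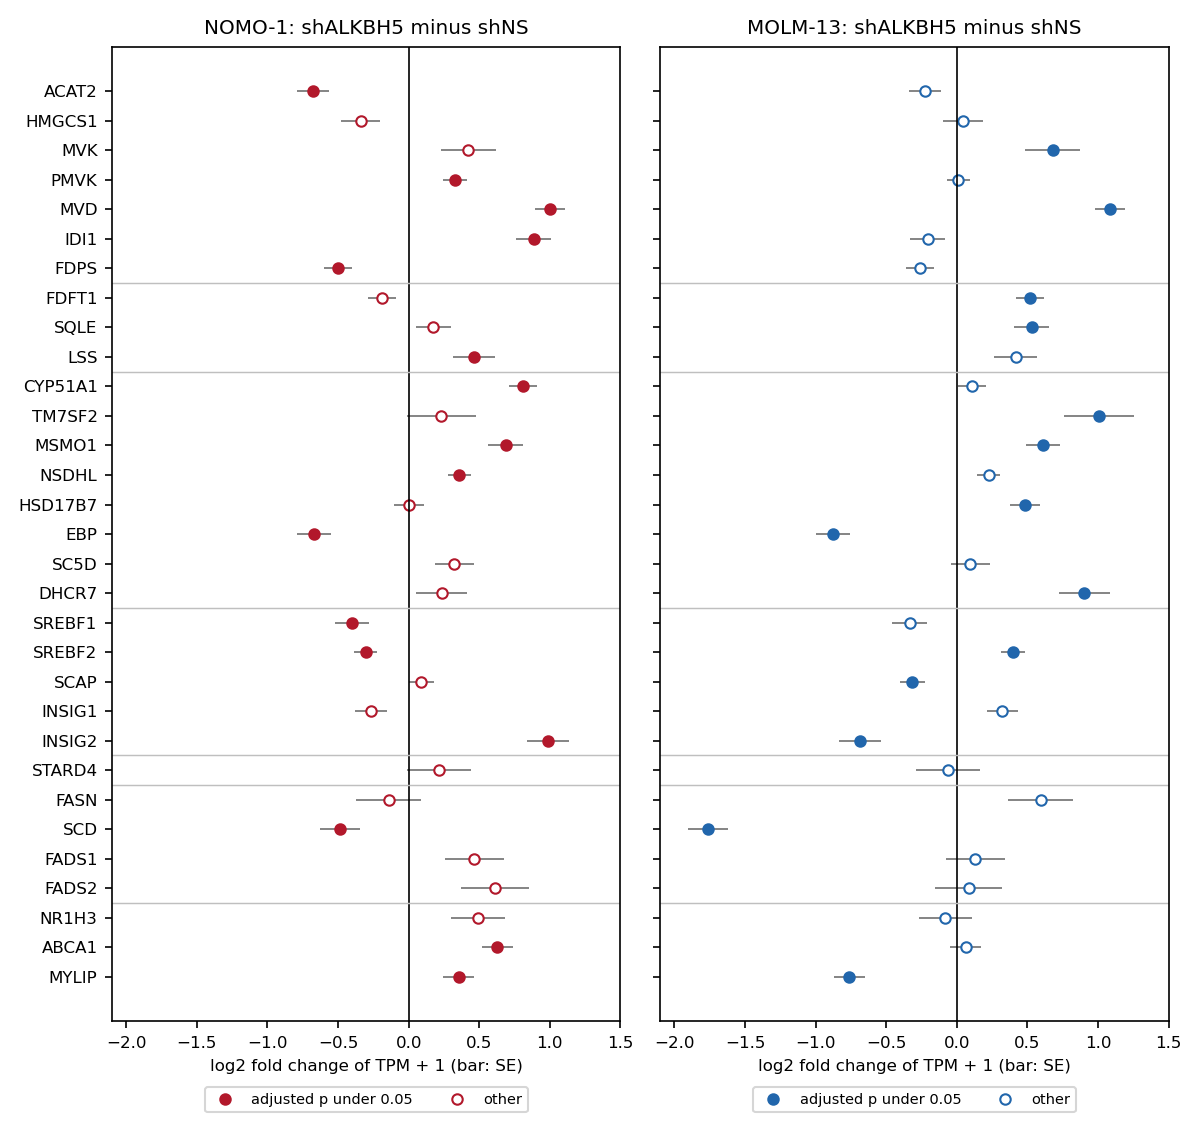
Log2 fold change of TPM + 1 (shALKBH5 minus shNS) for each of the 31 genes in NOMO-1 (left) and MOLM-13 (right), ordered by role, with SE as bars and filled points where the adjusted p was under 0.05. MVD and MSMO1 lie to the right of 0 and EBP and SCD to the left in both panels, while INSIG2 and MYLIP lie right in NOMO-1 and left in MOLM-13.

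In the mevalonate and isoprenoid steps, 3 of 7 genes rose and 2 fell in NOMO-1, beside 28.6% and 15.0% of all genes tested. In MOLM-13, 2 rose and none fell, beside 10.6% and 31.2%. MVD, the decarboxylase that makes the first isoprenoid unit, was 2.03-fold higher in NOMO-1 and 2.19-fold higher in MOLM-13 by means. It had 63.1 and 60.1 TPM in NOMO-1 shALKBH5, against 30.9 and 29.7 TPM in NOMO-1 shNS (log2 fold change 1.00, SE 0.11, adjusted p = 0.000971). In MOLM-13 MVD had 34.0 and 38.1 TPM in shALKBH5, against 15.6 and 17.4 TPM in shNS (1.08, SE 0.11, adjusted p = 0.000848). MVD was the only one of the 31 genes called in both lines under all 16 alternative settings, which include another scaling and leaving out each library.

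IDI1, the isomerase that follows MVD, rose in NOMO-1, with 151 and 163 TPM in shALKBH5 against 84.0 and 85.0 TPM in shNS (0.89, SE 0.12, adjusted p = 0.00239). In MOLM-13 its groups overlapped, at 45.8 and 37.1 TPM in shALKBH5 against 49.8 and 45.7 TPM in shNS (-0.20, SE 0.12, adjusted p = 0.233). The difference between the lines' effects was itself called (1.09, SE 0.18, adjusted p = 0.0076). IDI1 overlaps IDI2-AS1 on the opposite strand, which reached 9.84 TPM. FDPS, which joins isoprenoid units to farnesyl diphosphate, fell in NOMO-1, with 206 and 221 TPM in shALKBH5 against 296 and 309 TPM in shNS (-0.50, SE 0.10, adjusted p = 0.0083). In MOLM-13 FDPS had 161 and 141 TPM in shALKBH5 against 179 and 183 TPM in shNS (-0.26, adjusted p = 0.0788). The NOMO-1 call of FDPS was lost without shNS replicate 1 or 3 or shALKBH5 replicate 2 (adjusted p = 0.0519 to 0.07).

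ACAT2, the thiolase that joins acetyl-CoA units at the entry, fell in NOMO-1 to 101 and 118 TPM in shALKBH5, against 175.27 and 174.83 TPM in shNS (-0.68, SE 0.12, adjusted p = 0.0049). In MOLM-13 ACAT2 had 52.0 and 57.7 TPM in shALKBH5 against 67.6 and 60.9 TPM in shNS, which was not called (-0.23, adjusted p = 0.167). ACAT2 overlaps TCP1 and SOD2 on the opposite strand. HMGCS1, the synthase of the next step, had 47.7 and 54.2 TPM in NOMO-1 shALKBH5 against 62.7 and 66.7 TPM in NOMO-1 shNS, which was not called (-0.34, adjusted p = 0.0937) except under median-of-ratios scaling and in 4 other settings. In MOLM-13 HMGCS1 had 35.0 and 27.3 TPM in shALKBH5 around the 30.4 and 29.5 TPM of shNS. With median-of-ratios scaling HMGCS1 was called lower in NOMO-1 (-0.55, adjusted p = 0.00111) and higher in MOLM-13 (0.33, adjusted p = 0.00889). The difference of its effects was then called too (-0.88, adjusted p = 0.00245).

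The kinases MVK and PMVK act between these enzymes and MVD. MVK rose in MOLM-13, with 15.2 and 22.7 TPM in shALKBH5 against 11.01 and 11.5 TPM in shNS (0.68, SE 0.19, adjusted p = 0.0323). It had 26.6 and 22.1 TPM in NOMO-1 shALKBH5 against 17.3 and 18.4 TPM in NOMO-1 shNS (0.42, SE 0.19, adjusted p = 0.127). MVK overlaps MMAB on the opposite strand, which stood at 10.93 to 15.12 TPM. PMVK rose in NOMO-1, with 101 and 95.2 TPM in shALKBH5 against 77.2 and 79.0 TPM in shNS (0.33, SE 0.08, adjusted p = 0.0226), and its groups overlapped in MOLM-13, with 47.9 and 47.9 TPM in shALKBH5 against 46.6 and 48.5 TPM in shNS. The MVK call in MOLM-13 and the PMVK call in NOMO-1 were each lost in 6 of the 8 fits that left out 1 library, all but those without a MOLM-13 shALKBH5 library (adjusted p = 0.0528 to 0.142 and 0.0595 to 0.142), and PMVK also under median-of-ratios scaling (0.11, adjusted p = 0.512).

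Between farnesyl diphosphate and lanosterol, 2 of 3 genes rose in MOLM-13 and 1 in NOMO-1, beside 10.6% and 28.6% of all genes tested. FDFT1, squalene synthase, rose in MOLM-13 to 221 and 239.91 TPM in shALKBH5, against 160.65 and 160.45 TPM in shNS (0.52, SE 0.10, adjusted p = 0.00788). In NOMO-1 it was below its controls, at 312 and 347 TPM in shALKBH5 against 363 and 388 TPM in shNS, without passing the test (-0.19, SE 0.10, adjusted p = 0.168). The effects differed between the lines (-0.71, SE 0.14, adjusted p = 0.013), a call lost without NOMO-1 shNS replicate 1 or 3, NOMO-1 shALKBH5 replicate 2 or MOLM-13 shNS replicate 1 or 3 (adjusted p = 0.0534 to 0.0694).

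SQLE rose in MOLM-13, with 37.1 and 46.3 TPM in shALKBH5 against 28.3 and 28.5 TPM in shNS (0.53, SE 0.12, adjusted p = 0.017). In NOMO-1, where its level was far higher, it had 274 and 299 TPM in shALKBH5 against 247 and 259.83 TPM in shNS (0.17, SE 0.12, adjusted p = 0.305). LSS, which closes the sterol rings, rose in NOMO-1, with 58.7 and 59.0 TPM in shALKBH5 against 41.9 and 42.9 TPM in shNS (0.46, SE 0.15, adjusted p = 0.0477). In MOLM-13 LSS had 15.4 and 21.4 TPM in shALKBH5 against 13.2 and 13.5 TPM in shNS (0.42, SE 0.15, adjusted p = 0.0681). The LSS call was lost under median-of-ratios scaling (0.25, adjusted p = 0.439) and in 6 of the 8 fits without 1 library, all but those without a MOLM-13 shALKBH5 library (adjusted p = 0.0904 to 0.185). The MOLM-13 calls of FDFT1 and SQLE were lost without shNS replicate 1 or 3, with library weights and with the 4 MOLM-13 libraries alone.

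From lanosterol to cholesterol, 3 of 8 genes rose and 1 fell in NOMO-1, beside 28.6% and 15.0% of all genes tested. In MOLM-13, 4 rose and 1 fell, beside 10.6% and 31.2%. CYP51A1, the lanosterol demethylase, rose in NOMO-1, with 219.76 and 243 TPM in shALKBH5 against 129 and 134 TPM in shNS (0.81, SE 0.10, adjusted p = 0.00143). In MOLM-13 CYP51A1 had 43.3 and 46.0 TPM in shALKBH5 against 42.9 and 39.8 TPM in shNS (0.11, SE 0.10, adjusted p = 0.417). MSMO1, the methylsterol oxidase, rose in both. It had 128 and 134 TPM in NOMO-1 shALKBH5 against 78.9 and 83.3 TPM in NOMO-1 shNS (0.69, SE 0.12, adjusted p = 0.00554), and 41.9 and 34.2 TPM in MOLM-13 shALKBH5 against 25.6 and 23.4 TPM in MOLM-13 shNS (0.61, SE 0.12, adjusted p = 0.00971). The MOLM-13 call was lost without shNS replicate 3, with library weights and with the 4 MOLM-13 libraries alone. NSDHL, which acts with MSMO1, had 86.5 and 86.9 TPM in NOMO-1 shALKBH5 against 66.7 and 67.9 TPM in NOMO-1 shNS (0.36, SE 0.08, adjusted p = 0.014). In MOLM-13 NSDHL had 29.94 and 30.8 TPM in shALKBH5 against 26.1 and 25.6 TPM in shNS (0.22, adjusted p = 0.0689). The NSDHL call in NOMO-1 was lost under median-of-ratios scaling (0.14, adjusted p = 0.4) and without any 1 of the 4 NOMO-1 libraries (adjusted p = 0.0807 to 0.104).

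EBP, the sterol isomerase, was the 1 enzyme of the pathway called lower in both lines. It had 194 and 222 TPM in NOMO-1 shALKBH5, against 332 and 328 TPM in NOMO-1 shNS (-0.67, SE 0.12, adjusted p = 0.00616). In MOLM-13 EBP had 30.2 and 25.6 TPM in shALKBH5, against 54.7 and 49.4 TPM in shNS (-0.88, SE 0.12, adjusted p = 0.00268). The difference between the lines was not called (0.21, SE 0.17, adjusted p = 0.374). The NOMO-1 call was lost without shALKBH5 replicate 2 (adjusted p = 0.0523), and the MOLM-13 call held in all 16 alternative settings.

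DHCR7, a reductase of the last step, rose in MOLM-13, with 37.4 and 55.9 TPM in shALKBH5 against 24.0 and 24.0 TPM in shNS (0.90, SE 0.18, adjusted p = 0.00979). In NOMO-1 it had 128 and 136 TPM in shALKBH5 against 112 and 113 TPM in shNS (0.23, SE 0.18, adjusted p = 0.343). TM7SF2 rose in MOLM-13, with 9.77 and 16.4 TPM in shALKBH5 against 5.62 and 6.01 TPM in shNS (1.01, SE 0.25, adjusted p = 0.0191), and its groups overlapped in NOMO-1, at 4.90 and 4.38 TPM in shALKBH5 against 4.49 and 3.20 TPM in shNS. Both genes were well apart between the MOLM-13 shALKBH5 libraries, with replicate 3 the higher. HSD17B7 rose in MOLM-13, with 19.2 and 21.4 TPM in shALKBH5 against 13.84 and 14.58 TPM in shNS (0.48, SE 0.11, adjusted p = 0.0133). SC5D, a desaturase, was not called in NOMO-1, with 32.3 and 32.1 TPM in shALKBH5 against 25.1 and 26.0 TPM in shNS (0.32, adjusted p = 0.108), and overlapped in MOLM-13. The calls of DHCR7, TM7SF2 and HSD17B7 were lost without MOLM-13 shNS replicate 1 or 3 and with the 4 MOLM-13 libraries alone. Library weights also ended those of TM7SF2 and HSD17B7.

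In the SREBP system itself, 1 of 5 genes rose and 2 fell in NOMO-1, beside 28.6% and 15.0% of all genes tested. In MOLM-13, 1 rose and 2 fell, beside 10.6% and 31.2%. INSIG2 and SREBF2 were called in opposite directions in the lines. INSIG2, the SCAP anchor that is not driven by SREBP, had 62.5 and 65.4 TPM in NOMO-1 shALKBH5 against 29.3 and 34.5 TPM in NOMO-1 shNS (0.99, SE 0.15, adjusted p = 0.00322). In MOLM-13 INSIG2 had 6.32 and 4.89 TPM in shALKBH5 against 10.3 and 8.88 TPM in shNS (-0.69, SE 0.15, adjusted p = 0.0132). The difference of these effects was called (1.67, SE 0.21, adjusted p = 0.00429; 1.21, adjusted p = 0.00313 with median-of-ratios scaling). The MOLM-13 call was lost without shNS replicate 1, with library weights and with the 4 MOLM-13 libraries alone.

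SREBF2, the SREBP gene that chiefly drives cholesterol synthesis, fell in NOMO-1 and rose in MOLM-13. It had 74.8 and 76.4 TPM in NOMO-1 shALKBH5 against 91.8 and 95.4 TPM in NOMO-1 shNS (-0.30, SE 0.08, adjusted p = 0.0255). In MOLM-13 it had 94.1 and 98.0 TPM in shALKBH5 against 72.0 and 73.4 TPM in shNS (0.40, SE 0.08, adjusted p = 0.0109). The difference of the effects was called (-0.70, SE 0.12, adjusted p = 0.00821), a call lost without NOMO-1 shNS replicate 3 or MOLM-13 shNS replicate 1 (adjusted p = 0.0536 and 0.0538). The NOMO-1 call was lost in 6 of the 8 fits without 1 library, all but those without a MOLM-13 shALKBH5 library. The MOLM-13 call was lost without shNS replicate 1 or 3, with library weights and with the 4 MOLM-13 libraries alone.

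SREBF1, whose products chiefly drive fatty acid synthesis, fell in NOMO-1 to 36.0 and 37.8 TPM in shALKBH5, against 47.7 and 50.3 TPM in shNS (-0.40, SE 0.12, adjusted p = 0.0395). In MOLM-13 SREBF1 had 19.9 and 23.6 TPM in shALKBH5 against 25.7 and 29.6 TPM in shNS, not called (-0.33, SE 0.12, adjusted p = 0.0725). The NOMO-1 call was lost in 6 of the 8 fits without 1 library, all but those without a MOLM-13 shALKBH5 library (adjusted p = 0.0634 to 0.19). INSIG1 was called in neither line, but with median-of-ratios scaling it was called higher in MOLM-13 (0.615, adjusted p = 0.0264). It had 450.3 and 524 TPM in NOMO-1 shALKBH5 against 582 and 587 TPM in NOMO-1 shNS (-0.27, SE 0.11, adjusted p = 0.101), and 60.1 and 67.5 TPM in MOLM-13 shALKBH5 against 52.4 and 49.0 TPM in MOLM-13 shNS (0.32, SE 0.11, adjusted p = 0.0597). The groups did not overlap in either line. SCAP fell in MOLM-13, with 20.7 and 20.4 TPM in shALKBH5 against 24.9 and 26.7 TPM in shNS (-0.32, SE 0.09, adjusted p = 0.0303), a call that median-of-ratios scaling ended (-0.03, adjusted p = 0.844), as did 6 of the 8 fits without 1 library, all but those without a MOLM-13 shALKBH5 library (adjusted p = 0.0623 to 0.187). In NOMO-1 SCAP had 46.1 and 44.1 TPM in shALKBH5 against 42.3 and 42.4 TPM in shNS (0.09, adjusted p = 0.463).

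Of the fatty acid genes, SCD was the only one of 4 called in either line, and it fell in both. SCD, the desaturase that makes monounsaturated fatty acids, was the most abundant of the genes in NOMO-1, ranking 123rd of the whole table by mean TPM in shALKBH5 and 98th in shNS. It had 844 and 990.4 TPM in NOMO-1 shALKBH5, against 1249.9 and 1311 TPM in NOMO-1 shNS (-0.48, SE 0.14, adjusted p = 0.0342). The drop was larger in MOLM-13, to 72.7 and 93.2 TPM in shALKBH5 against 281.54 and 281.14 TPM in shNS, 3.39-fold lower by means (-1.76, SE 0.14, adjusted p = 0.000479). The effects differed in size between the lines (1.28, SE 0.20, adjusted p = 0.00732), although not with median-of-ratios scaling (0.77, adjusted p = 0.108). The MOLM-13 call held in all 16 alternative settings, while the NOMO-1 call was lost in 6 of the 8 fits without 1 library, all but those without a MOLM-13 shALKBH5 library (adjusted p = 0.0603 to 0.186).

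The other fatty acid genes did not pass the test. FADS1 had 279 and 323 TPM in NOMO-1 shALKBH5 against 211 and 225 TPM in NOMO-1 shNS (0.46, SE 0.21, adjusted p = 0.122), and 8.98 and 14.6 TPM in MOLM-13 shALKBH5 around the 10.6 and 10.1 TPM of MOLM-13 shNS. FADS2 had 372 and 419 TPM in NOMO-1 shALKBH5 against 257 and 259 TPM in NOMO-1 shNS (0.61, SE 0.24, adjusted p = 0.0825), and 11.6 and 20.7 TPM in MOLM-13 shALKBH5 around the 14.5 and 14.8 TPM of MOLM-13 shNS. Neither gene's groups overlapped in NOMO-1. FASN, the fatty acid synthase, had 118 and 139 TPM in NOMO-1 shALKBH5 against 140.3 and 142 TPM in NOMO-1 shNS (-0.14, adjusted p = 0.661). In MOLM-13 FASN had 91.3 and 151 TPM in shALKBH5 against 75.0 and 80.1 TPM in shNS (0.59, SE 0.23, adjusted p = 0.0813). STARD4, which carries cholesterol between membranes, had 60.5 and 69.6 TPM in NOMO-1 shALKBH5 against 56.0 and 55.6 TPM in NOMO-1 shNS (0.21, adjusted p = 0.497), and overlapped in MOLM-13. Its value may include reads of the opposite-strand gene STARD4-AS1, which reached 13.0 TPM.

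Among LXR and its targets, 2 of 3 genes tested rose in NOMO-1 and 1 fell in MOLM-13, beside 28.6% and 31.2% of all genes tested. ABCA1 rose in NOMO-1 but stayed under 1 TPM, with 0.69 and 0.77 TPM in shALKBH5 against 0.15 and 0.09 TPM in shNS (0.63, SE 0.11, adjusted p = 0.00511). It passed the filter through MOLM-13 alone, and its log2 fold change in NOMO-1 ran from 0.162 to 1.928 over the alternative settings. In MOLM-13 its level was higher and it was not called, with 8.45 and 7.60 TPM in shALKBH5 against 7.82 and 7.46 TPM in shNS (0.06, adjusted p = 0.692). MYLIP rose in NOMO-1, with 75.9 and 75.4 TPM in shALKBH5 against 58.7 and 59.3 TPM in shNS (0.35, SE 0.11, adjusted p = 0.0437). It fell in MOLM-13, to 46.9 and 56.4 TPM in shALKBH5 against 91.2 and 84.8 TPM in shNS (-0.76, SE 0.11, adjusted p = 0.00327). The effects of MYLIP differed between the lines (1.11, SE 0.16, adjusted p = 0.00549), although not with median-of-ratios scaling (0.61, adjusted p = 0.129), which also ended the calls in NOMO-1 (0.14, adjusted p = 0.6) and MOLM-13 (adjusted p = 0.0851). The NOMO-1 call was also lost in 6 of the 8 fits without 1 library, all but those without a MOLM-13 shALKBH5 library (adjusted p = 0.0853 to 0.181). NR1H3 was called in neither line, with 7.62 and 6.35 TPM in NOMO-1 shALKBH5 against 4.54 and 4.79 TPM in NOMO-1 shNS (0.49, SE 0.19, adjusted p = 0.0788). NR1H3 overlaps ACP2 on the opposite strand, which stood at 3.53 to 6.57 TPM. ABCG1, not tested, had 0.25 and 0.11 TPM in NOMO-1 shALKBH5 against 0.22 and 0.18 TPM in NOMO-1 shNS, and was listed at 0 in all 4 MOLM-13 libraries.

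**Figure D4:**
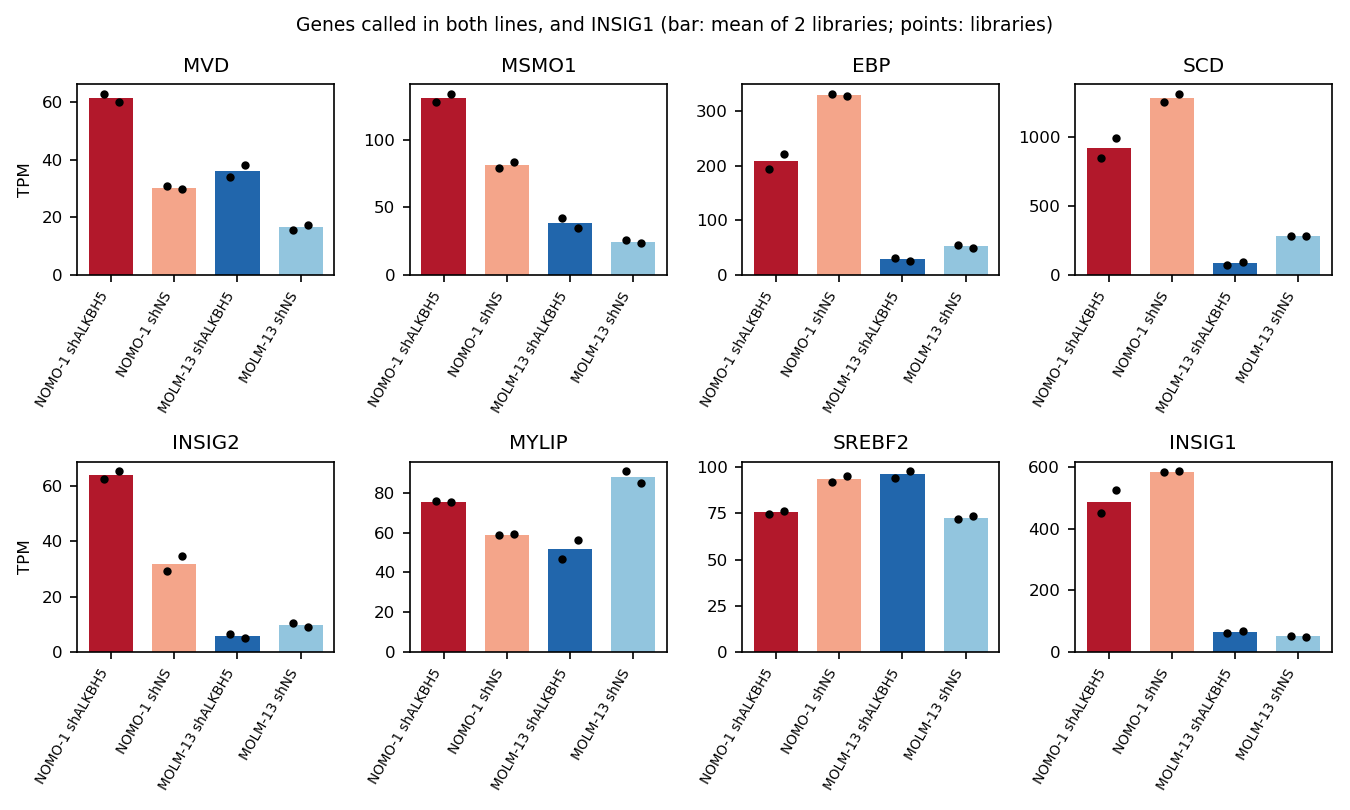
TPM of the 7 genes called in both lines, and of INSIG1, in each group, with bars at the mean of 2 libraries and points for the libraries. MVD and MSMO1 are higher and EBP and SCD lower in shALKBH5 than in shNS of both lines, while INSIG2 and MYLIP are higher in NOMO-1 shALKBH5 and lower in MOLM-13 shALKBH5 than in their controls, and SREBF2 the reverse; with median-of-ratios scaling MYLIP is called in neither line.

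Set side by side, 7 genes were called in both lines: MVD and MSMO1 as higher in both, EBP and SCD as lower in both, INSIG2 and MYLIP as higher in NOMO-1 and lower in MOLM-13, and SREBF2 as lower in NOMO-1 and higher in MOLM-13. A further 9 were called in NOMO-1 and not in MOLM-13, and 7 the other way round, while 8 were called in neither. The difference of the effects (NOMO-1 minus MOLM-13) was called for 11 of the 31 genes, 7 as higher and 4 as lower, where 34.6% of all genes tested were called (29.7% higher, 4.9% lower). With median-of-ratios scaling, which shifts the median of all genes by -0.43 here, 2 were higher and 7 lower, where 18.5% and 17.1% of all genes tested were called. For most genes called in 1 line alone the difference was not called: of the 16, it passed for IDI1, CYP51A1, ABCA1, FDFT1, HSD17B7 and SCAP, and the last gave 0.41 (adjusted p = 0.0487) against -0.09 with median-of-ratios scaling. The control libraries of a line serve only that line, but the estimate of spread is shared. Fitted on the 4 NOMO-1 libraries alone, 16 rose and 8 fell in NOMO-1, where 6017 and 3401 of all genes were called. In that fit MVK, SQLE and DHCR7, called above in MOLM-13 and not in NOMO-1, were called in NOMO-1 as well. So were HMGCS1, SC5D, INSIG1, FADS1, FADS2 and NR1H3, called above in neither line.

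The MOLM-13 results rest on the group whose libraries stood furthest apart. The libraries differed most in FADS2, by 0.78 on the log2 scale, and the median absolute difference over the 31 genes was 0.26, against 0.05 to 0.11 in the other groups. Without shALKBH5 replicate 1, 15 genes rose and 8 fell in MOLM-13, where 13.8% and 52.5% of all genes tested in that fit were called. Without shALKBH5 replicate 3, 12 rose and 7 fell, where 23.2% and 35.0% were called. In those fits the lone library left in the group was assumed to vary like the other groups. Fitted on the 4 MOLM-13 libraries alone, 1 rose (MVD) and 3 fell (EBP, SCD and MYLIP), where 4.22% and 16.4% were called. All other MOLM-13 calls, among them MSMO1, INSIG2 and SREBF2, were lost in that fit. MVD, EBP and SCD were called in MOLM-13 in all 16 alternative settings, and MVD, IDI1 and CYP51A1 in NOMO-1.

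Other genes of sterol and lipid supply, in 6 lists with 87 genes tested, moved as follows. In NOMO-1, 31 rose and 8 fell (24 and 19 with median-of-ratios scaling), which is 35.6% and 9.2% of them beside 28.6% and 15.0% of all genes tested, with a median log2 fold change of 0.26. In MOLM-13, 14 rose and 24 fell (24 and 20), which is 16.1% and 27.6% beside 10.6% and 31.2%, with a median of -0.19. The medians over all genes tested were 0.16 and -0.18.

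In acetyl-CoA and fatty acid supply, 7 of 21 genes rose and 2 fell in NOMO-1, beside 28.6% and 15.0% of all genes tested. In MOLM-13, 3 rose and 4 fell, beside 10.6% and 31.2%. The enzymes that make cytosolic acetyl-CoA were called in opposite directions to each other in both lines. ACLY, which makes it from citrate, fell in NOMO-1 to 52.9 and 58.1 TPM in shALKBH5, against 152 and 154 TPM in shNS (-1.45, SE 0.09, adjusted p = 0.000334), and in MOLM-13 to 44.5 and 45.5 TPM in shALKBH5, against 93.8 and 98.3 TPM in shNS (-1.08, SE 0.09, adjusted p = 0.000513). ACSS2, which makes it from acetate, rose in NOMO-1, with 67.5 and 68.7 TPM in shALKBH5 against 29.6 and 34.2 TPM in shNS (1.07, SE 0.10, adjusted p = 0.000798). It also rose in MOLM-13, with 37.0 and 35.0 TPM in shALKBH5 against 20.6 and 19.5 TPM in shNS (0.81, SE 0.10, adjusted p = 0.00211). ACSL4, which activates arachidonic acid, fell in NOMO-1 (-1.49, adjusted p = 0.00117) and was also called lower in MOLM-13. DGAT1, the last enzyme of triglyceride synthesis, rose in MOLM-13 (0.60, adjusted p = 0.00546), a call lost without shNS replicate 1. DGAT1 was also called higher in NOMO-1.

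In the isoprenoid branch, 7 of 15 genes rose and 2 fell in NOMO-1, beside 28.6% and 15.0% of all genes tested. In MOLM-13, 3 rose and 5 fell, beside 10.6% and 31.2%. DHDDS, a subunit of the enzyme that extends farnesyl diphosphate towards dolichol, rose in NOMO-1, with 138.58 and 136 TPM in NOMO-1 shALKBH5 against 32.9 and 33.5 TPM in NOMO-1 shNS (2.02, SE 0.10, adjusted p = 0.000242). DHDDS was also called higher in MOLM-13. Its partner subunit NUS1 had 188 and 193 TPM in NOMO-1 shALKBH5 against 77.2 and 74.0 TPM in NOMO-1 shNS (1.32, SE 0.16, adjusted p = 0.00159). NUS1 was called lower in MOLM-13. DOLK, the dolichol kinase, rose in both lines (1.06 in NOMO-1, adjusted p = 0.000776; 0.71 in MOLM-13, adjusted p = 0.00304). In MOLM-13, ICMT, which methylates prenylated proteins, fell (-0.97, adjusted p = 0.00151). PDSS2, which builds the ubiquinone tail, also fell there (-1.24, adjusted p = 0.00358) and was called lower in NOMO-1 as well.

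In sterol uptake, transport and storage, 8 of 19 genes rose and 2 fell in NOMO-1, beside 28.6% and 15.0% of all genes tested. In MOLM-13, 4 rose and 5 fell, beside 10.6% and 31.2%. OSBP and OSBPL2, sterol transfer proteins, and LRPAP1, a chaperone of lipoprotein receptors, rose in NOMO-1 (1.14, 1.06 and 0.98, with adjusted p = 0.000478, 0.0018 and 0.000531). LRPAP1 was also called higher in MOLM-13. In MOLM-13, NPC1, which releases cholesterol from lysosomes, rose with 26.3 and 24.5 TPM in shALKBH5 against 12.4 and 11.6 TPM in shNS (1.03, SE 0.09, adjusted p = 0.000551). FABP5, a fatty acid carrier, fell in MOLM-13 (-1.14, adjusted p = 0.000526), as did VLDLR, a lipoprotein receptor (-1.05, adjusted p = 0.000716). In NOMO-1, NPC1 was also called higher and FABP5 lower.

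In SREBP processing and sterol sensing, 3 of 11 genes rose and 1 fell in NOMO-1, beside 28.6% and 15.0% of all genes tested. In MOLM-13, none rose and 4 fell (36.4% of the list), beside 10.6% and 31.2%. MARCH6, a ubiquitin ligase that removes SQLE protein, fell in MOLM-13, with 35.8 and 27.3 TPM in shALKBH5 against 69.4 and 66.6 TPM in shNS (-1.10, SE 0.14, adjusted p = 0.00206). MBTPS2, the intramembrane protease that frees SREBP, rose in NOMO-1 (0.61, adjusted p = 0.00312), a call lost under median-of-ratios scaling (adjusted p = 0.0503). MBTPS2 was called lower in MOLM-13. ERLIN1 rose and ERLIN2 fell in NOMO-1 (0.57 and -0.61, adjusted p = 0.00551 and 0.00488). They encode paired subunits of an endoplasmic reticulum complex that binds cholesterol. ERLIN2 also fell in MOLM-13 (-0.49, adjusted p = 0.0113), although not with median-of-ratios scaling (adjusted p = 0.358) or without shNS replicate 1 or 3.

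Among other sterol enzymes, 4 of 9 rose and 1 fell in NOMO-1, beside 28.6% and 15.0% of all genes tested. In MOLM-13, 2 rose and 2 fell, beside 10.6% and 31.2%. POR, which passes electrons to CYP51A1 and SQLE, rose in NOMO-1, with 77.8 and 73.5 TPM in shALKBH5 against 39.3 and 40.3 TPM in shNS, and in MOLM-13, with 61.5 and 50.0 TPM in shALKBH5 against 28.4 and 29.8 TPM in shNS (0.91 in each line, adjusted p = 0.00191 and 0.00223). CYB5R3, which passes electrons to MSMO1, SC5D and SCD, rose in both as well (0.83 in NOMO-1, adjusted p = 0.00315; 0.80 in MOLM-13, adjusted p = 0.00402). SULT2B1, a sterol sulfotransferase, rose in NOMO-1, with 2.09 and 2.09 TPM in shALKBH5 against 1.09 and 0.95 TPM in shNS (0.61, adjusted p = 0.00518). LBR, a sterol reductase of the nuclear membrane, fell in MOLM-13 (-1.29, adjusted p = 0.0113), a call lost without shNS replicate 1 or 3. LBR was also called lower in NOMO-1. Among LXR partners and further LXR targets, 2 of 12 genes rose and none fell in NOMO-1, and 2 rose and 4 fell in MOLM-13, beside the same shares. PLTP, the phospholipid transfer protein, rose in both (0.65 in NOMO-1, adjusted p = 0.0395, lost in 10 of 16 alternative settings; 1.02 in MOLM-13, adjusted p = 0.00922, lost without shNS replicate 1). TMEM135 rose in NOMO-1 (0.69, adjusted p = 0.00358) and was called lower in MOLM-13. NCOA1 fell in MOLM-13 (-1.08, adjusted p = 0.00829), a call lost without shNS replicate 1 or 3.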

How the data were processed

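Per the submitters' processing notes, reads of stranded poly(A) libraries were processed with STAR, RSEM and the build GRCh38; their versions, the annotation used and whether counting used strand are details not given in the sources used. The authors deposited 1 table of TPM for all 8 libraries; the unit was read from the values, since each column sums to 1000000 within rounding. TPM is a share, so a rise in abundant transcripts lowers all other values of that library. The table keeps no depth, so counting intervals could not be computed.

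log2(TPM + 1) was fitted with limma 3.58.1 (R 4.3.3), with 1 mean for each group and all 8 libraries in the fit (4 residual and 2.29 prior degrees of freedom), an intensity trend, two-sided tests and Benjamini-Hochberg adjustment over 14302 genes at 0.05. Because 1 is added before the logarithm, fold changes of low genes come out too small. All groups share 1 estimate of spread, and MOLM-13 shALKBH5 varied most. The genes and the further lists were chosen with earlier results of these data known. All of the chosen genes in the table are named, and of each further list the 3 smallest p per line among called genes. The alternatives were pseudocounts of 0.1 and 5, no filter, a filter on a mean of 5 TPM, median-of-ratios scaling, library weights, the 4 libraries of a line alone, each library left out and a replicate block. The fit was run on simulated data with equal spread in all groups and changes planted in NOMO-1 shALKBH5 alone. That run does not cover the wider spread of MOLM-13 shALKBH5. Replicate numbers were taken from the labels. Sequences and coordinates are from RefSeq (GRCh38.p14), matched by symbol; the motif windows covered 27 of the genes. Overlaps between genes were read from GENCODE. A few genes of the pathway and of the lists are not reported here.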

Additional observations from a re-analysis of the deposited data

Results flagged for a closer look

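The knockdown effect differed between the lines for 11 of the 31 genes, where 34.6% of all genes tested were called (29.7% higher, 4.9% lower). It was compared by a test of the difference itself (limma, NOMO-1 minus MOLM-13, log2 scale). It was more positive in NOMO-1 for INSIG2 (1.67), SCD (1.28), MYLIP (1.11), IDI1 (1.09), CYP51A1 (0.7), ABCA1 (0.57) and SCAP (0.41). It was more negative in NOMO-1 for FDFT1 (-0.71), SREBF2 (-0.7), INSIG1 (-0.59) and HSD17B7 (-0.48), the last listed at 0 in all NOMO-1 libraries, so that its difference is the MOLM-13 effect alone. The median difference over all genes tested was 0.42. With median-of-ratios scaling the difference was still called for INSIG2, IDI1, FDFT1, SREBF2 and INSIG1, and no longer for SCD, MYLIP, CYP51A1, ABCA1, SCAP and HSD17B7. It was newly called with that scaling for ACAT2 (-0.96), HMGCS1 (-0.88), FDPS (-0.75) and MSMO1 (-0.43). Leaving out 1 library at a time, it was called each time for INSIG2, IDI1, SCD and MYLIP. ABCA1 lay under 1 TPM in NOMO-1 and passed the filter through MOLM-13 alone, and its difference was called in 3 of 14 alternative settings.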

How the results depend on the processing

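Counts are of genes called higher and lower, first for the 31 genes and then for all genes tested. With median-of-ratios scaling, 6 rose in NOMO-1 and 3716 of all genes fell; in MOLM-13, 3 fell and 3453 of all rose; for the difference of the effects, 2 were higher and 7 lower, and 2653 and 2450 of all; between controls, 4508 of all were lower. SCAP reversed for the difference, at -0.09. With library weights, 17 rose in NOMO-1, and 6213 and 3499 of all; in MOLM-13, 2 rose and 3 fell, and 382 and 2433 of all; for the difference, 347 of all were lower. With the 4 libraries of a line alone, 16 rose in NOMO-1 and 3401 of all fell; in MOLM-13, 1 rose and 3 fell, and 532 and 2061 of all. Leaving out 1 library at a time gave 6 to 16 higher and 1 to 9 lower in NOMO-1 (all genes 2106 to 6232 and 1137 to 3526); 1 to 15 and 3 to 8 in MOLM-13 (541 to 3285 and 2090 to 7435); 4 to 11 and 0 to 10 for the difference (1392 to 8433 and 194 to 1945); and 24 to 27 and 3 to 4 between controls (4409 to 7409 and 1956 to 3780). The replicate numbers were not taken as pairs: same-numbered libraries deviated together with correlations of 0.0606 between the MOLM-13 groups and 0.0087 between the controls, and the NOMO-1 groups, which share 1 number, could not be checked. With the replicate block, 3 rose and 0 fell in NOMO-1 (1360 and 618 of all), 4 rose and 3 fell in MOLM-13 (857 of all rose), and for the difference limma called 0 higher and 0 lower (0 and 0 of all; 8 and 5250 at an unadjusted p under 0.05). The shorter motif matched 3 windows. Every other alternative, the pseudocounts and filters among them, kept each count within 1.5 times. The cause of these changes was not tested. Without counts, depth sets no limit that could be computed; 2 libraries a group set the precision.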
